A study of Homo sapiens with 30 samples.

Results

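The nuclear genes for subunits of the mitochondrial respiratory chain and ATP synthase were examined in HT29, a long-established cell line from a human colorectal adenocarcinoma. Members were the protein-coding genes whose symbols begin with NDUFA, NDUFB, NDUFC, NDUFS or NDUFV and a number, with UQCR, with COX4 to COX8 or with ATP5, together with SDHA, SDHB, SDHC and SDHD; assembly factors with AF in the symbol were excluded. No measured value entered that rule, though earlier results of these data were known when members were chosen. The rule gave 89 of the 60675 genes in the deposited table. Of these, 84 passed the filter on low counts and entered the tests, among 18783 genes in all. The other 5 were COX4I2, COX6A2, COX7B2, COX8C and ATP5MGL. Cells had been kept for 24 h with a 70% ethanol extract of a Korean herbal formula from a series on digestive herbal medicine, or with the solvent DMSO alone. Banhasasim extract was given at 20, 100 and 500 µg/mL (2 libraries a dose, replicates 2 and 3), Bojungikgi and Sayeok extracts at the same doses (3 libraries each) and Yijung extract at the same doses (1 library each, replicate 3). The vehicle group held 3 libraries from cells in DMSO, which the sample labels give as 0.1% and the series text as 2%. Every group was the same cell line in the same medium, with no genetic change. Sample codes begin differently for the vehicle, for Banhasasim and Yijung, and for Bojungikgi and Sayeok, so any difference in handling that these codes mark cannot be told apart from the extracts.

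The respiratory chain moves electrons from NADH and succinate to oxygen and pumps protons across the inner mitochondrial membrane. Complex I takes electrons from NADH, complex II from succinate, complex III passes them from ubiquinol to cytochrome c, complex IV gives them to oxygen, and complex V (ATP synthase) uses the proton gradient to make ATP. Complex II is coded by nuclear genes alone, whereas each of the others also holds subunits made from mitochondrial DNA. Many promoters of the nuclear genes are known to bind the factors NRF1, GABP (a member of the ETS family), YY1 and Sp1, which is why the genes are often described as a coordinated set.

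Promoters of 5 members named in the results below are given here as RefSeq has them in GRCh38.p14, from 250 bases before to 50 bases after the annotated start, so that the shared letters can be seen beside the changes. ATP5MC2, UQCRQ and COX8A had the largest called falls of their complexes for Bojungikgi at 500 µg/mL against the vehicle, UQCRFS1 was called lower in 3 comparisons with the vehicle, and NDUFS1 was the member called higher for Bojungikgi. Capitals mark a match, on either strand, to GCGCATGCG (NRF1), CCGGAAG (ETS), AAGATGG (YY1), ACGTG (the core of the hypoxia response element) or GGGCGG (Sp1). None of these matches overlapped another in the promoters shown.
ATP5MC2, chr12:53676034-53676333, minus strand: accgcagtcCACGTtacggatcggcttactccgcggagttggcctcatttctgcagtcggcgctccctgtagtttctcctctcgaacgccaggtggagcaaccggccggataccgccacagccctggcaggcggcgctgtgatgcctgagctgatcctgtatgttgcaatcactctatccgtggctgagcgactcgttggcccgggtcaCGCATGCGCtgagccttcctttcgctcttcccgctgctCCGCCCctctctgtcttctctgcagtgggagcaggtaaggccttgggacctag
UQCRQ, chr5:132866392-132866691, plus strand: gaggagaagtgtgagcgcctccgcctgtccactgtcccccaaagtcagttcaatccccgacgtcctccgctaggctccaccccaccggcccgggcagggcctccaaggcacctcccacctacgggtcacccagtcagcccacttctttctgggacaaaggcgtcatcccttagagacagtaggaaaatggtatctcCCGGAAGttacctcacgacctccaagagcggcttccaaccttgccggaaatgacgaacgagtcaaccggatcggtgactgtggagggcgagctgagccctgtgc
COX8A, chr11:63974370-63974669, plus strand: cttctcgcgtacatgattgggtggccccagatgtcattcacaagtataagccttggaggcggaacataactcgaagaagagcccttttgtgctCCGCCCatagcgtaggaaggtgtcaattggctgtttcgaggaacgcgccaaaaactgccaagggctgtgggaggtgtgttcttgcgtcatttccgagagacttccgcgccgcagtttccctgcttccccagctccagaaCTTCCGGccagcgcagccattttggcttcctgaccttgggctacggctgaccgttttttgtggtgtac
UQCRFS1, chr19:29213102-29213401, minus strand: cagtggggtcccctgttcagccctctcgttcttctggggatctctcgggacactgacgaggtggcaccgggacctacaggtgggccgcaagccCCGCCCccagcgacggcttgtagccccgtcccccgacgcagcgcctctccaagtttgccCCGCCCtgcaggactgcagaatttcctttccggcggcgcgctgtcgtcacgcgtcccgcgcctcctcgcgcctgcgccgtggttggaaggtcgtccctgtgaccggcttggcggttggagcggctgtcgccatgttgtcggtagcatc
NDUFS1, chr2:206159395-206159694, minus strand: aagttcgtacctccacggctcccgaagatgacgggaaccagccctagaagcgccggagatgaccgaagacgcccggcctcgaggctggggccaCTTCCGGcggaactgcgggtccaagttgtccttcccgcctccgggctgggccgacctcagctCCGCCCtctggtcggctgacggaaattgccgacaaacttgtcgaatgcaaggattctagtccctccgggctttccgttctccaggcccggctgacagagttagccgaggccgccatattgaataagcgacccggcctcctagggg
ATP5MC2 held NRF1, hypoxia core and Sp1 letters, COX8A and NDUFS1 each held ETS and Sp1 letters, UQCRQ held ETS letters and UQCRFS1 held Sp1 letters at a pair of places. Among called members whose promoters are not shown, SDHA held none of these letters and NDUFS4 held YY1 letters. A promoter was matched for 70 of the 89 members. NRF1 letters stood in 10 of them (14.3%), against 2.1% of 27305 promoters of all genes, and ETS letters in 20 (28.6%), against 10.7%. YY1 letters stood in 16 (22.9%), against 6.06%, Sp1 letters in 43 (61.4%), against 44.6%, and the hypoxia core in 18 (25.7%), against 21.6%. These shares describe windows of equal length, and a match is not evidence of binding.

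Total expected counts per library ranged from 36.274 to 71.626 (in units of 1e6 counts), with a median of 50.054. Separate cultures for the replicates are nowhere stated, so p-values measure the spread between these libraries, which may be technical. Of 10 colon epithelial markers, EPCAM had 487 to 597 CPM (counts per 1e6 counts), KRT8 4980 to 7050 CPM and LGALS4 405 to 616 CPM. The intestinal markers CDX1, CDX2 and GPA33 were low, with medians of 1.2, 6.12 and 4.63 CPM. The 9 fibroblast and endothelial markers summed to between 3.29 and 4.22 CPM in the vehicle libraries and between 3.29 and 4.8 CPM over all libraries, with medians of 0 for COL1A2, COL3A1 and CDH5, 1.28 CPM for COL1A1 and 1.75 CPM for PECAM1. Of 7 leukocyte markers, CD3E and MS4A1 had medians of 0 and PTPRC a median of 0.0179 CPM. LYZ alone was abundant, at 1620 to 2010 CPM. In such bulk samples, fewer cells of a kind and less RNA per cell cannot be told apart.

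Libraries differed in how much subunit mRNA they held before any comparison was made. Members took from 0.64% of counts in Bojungikgi 500 µg/mL replicate 2 to 1.05% in vehicle replicate 1. With each library scored by the median, over the 84 members, of the log2 deviation from a gene's own median over 30 libraries, the vehicle replicates stood at 0.40, 0.13 and 0.04. Bojungikgi 500 µg/mL replicate 2 stood at -0.515 while its replicates 1 and 3 stood near 0, and Sayeok 100 µg/mL replicate 2 stood at -0.23. A single library thus carried most of the distance in each of these 3 groups. Of the 84 members, 68 had their lowest value in Bojungikgi 500 µg/mL replicate 2 and 8 in Sayeok 100 µg/mL replicate 2. Ribosomal protein genes moved with them, and their part in the members' values was not tested: the median deviation of 85 cytosolic ribosomal protein genes was -0.52 in Bojungikgi 500 µg/mL replicate 2 and 0.45 in vehicle replicate 1, and that of 78 mitochondrial ribosomal protein genes was -0.29 and 0.33 in the same libraries. Counts of called members in the comparisons with the vehicle are given with and without the library that moved them. Shares of all genes called are given for the fit with all libraries only. A count lost in another fit, for the members or for another list, thus cannot be read as particular to those genes.

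**Figure D1:**
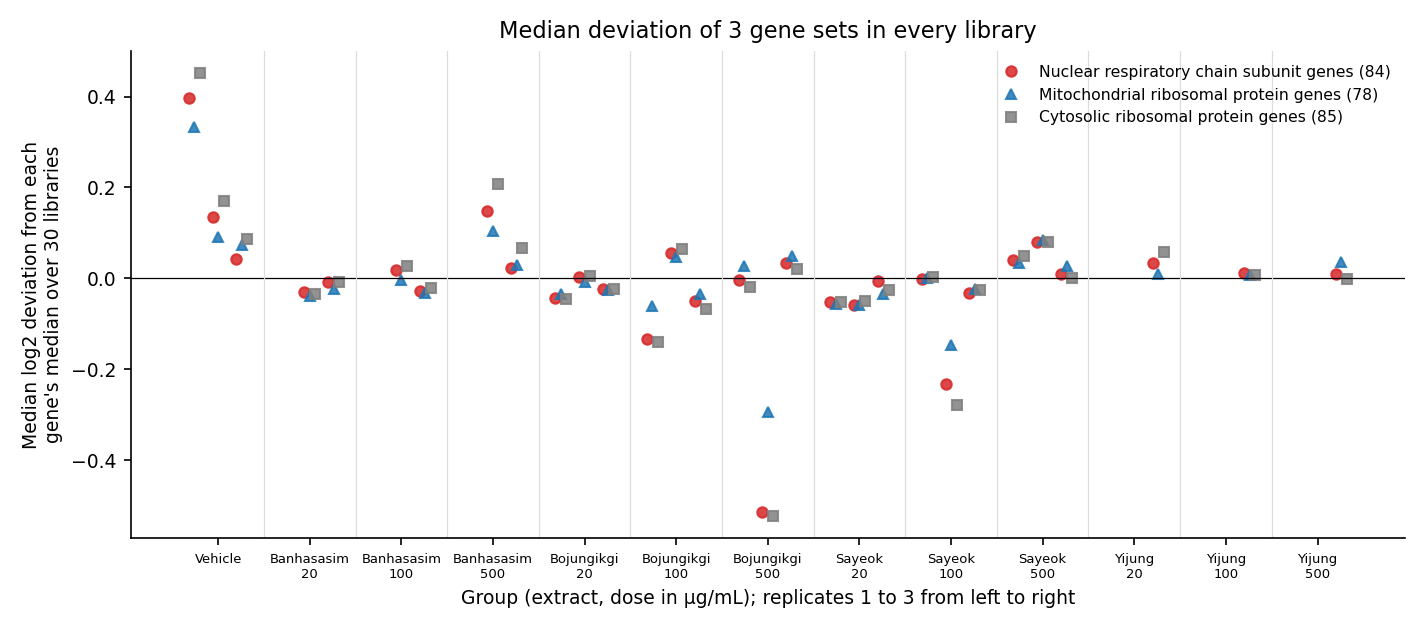
Median log2 deviation of 3 gene sets (y axis, relative to each gene's median over 30 libraries) in every library (points, replicates 1 to 3 from left to right within a group); circles are the 84 nuclear respiratory chain subunit genes, triangles 78 mitochondrial and squares 85 cytosolic ribosomal protein genes. Vehicle replicate 1 stands highest (0.40 for the subunit genes) and Bojungikgi 500 µg/mL replicate 2 lowest (-0.515).

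Levels of the members spanned a wide range within each complex. The genes named next are the highest by mean CPM within their own complex, rather than a ranking over all members. By mean CPM over 30 libraries, ATP5F1B, the catalytic beta subunit of ATP synthase, led with 581, followed by ATP5F1A, the alpha subunit beside it, with 335. NDUFB9, an accessory subunit of complex I, had 287 CPM, SDHA, the flavoprotein of complex II, 272 CPM, and COX8A, a small membrane subunit of complex IV, 217 CPM. COX6B1, a subunit on the intermembrane side, was the next of complex IV with 215 CPM. UQCRC2, a core protein of complex III, had 173 CPM, NDUFS1, the largest iron-sulfur subunit of complex I, 166 CPM, SDHD, a membrane anchor of complex II, 145 CPM and UQCRH, the hinge protein of complex III, 140 CPM. Long genes collect more reads, so levels were also set per kb of coding length. On that scale the medians were 101 CPM per kb for complex I, 206 for complex II, 304 for complex III, 366 for the 12 well-expressed genes of complex IV and 280 for complex V. ATP5F1E, the small epsilon subunit, was the highest at 1600 CPM per kb, and COX8A followed at 1050 CPM per kb. This scale leaves out the untranslated parts of a transcript, so the order depends on the length used. ATP5F1E had 153 coding nucleotides against a median transcript length of 1878, and COX8A 207 against 507. Complex I had the lowest of the 5 medians, and its genes lay between 39.8 CPM per kb for NDUFA8 and 535 CPM per kb for NDUFB9.

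**Figure D2:**
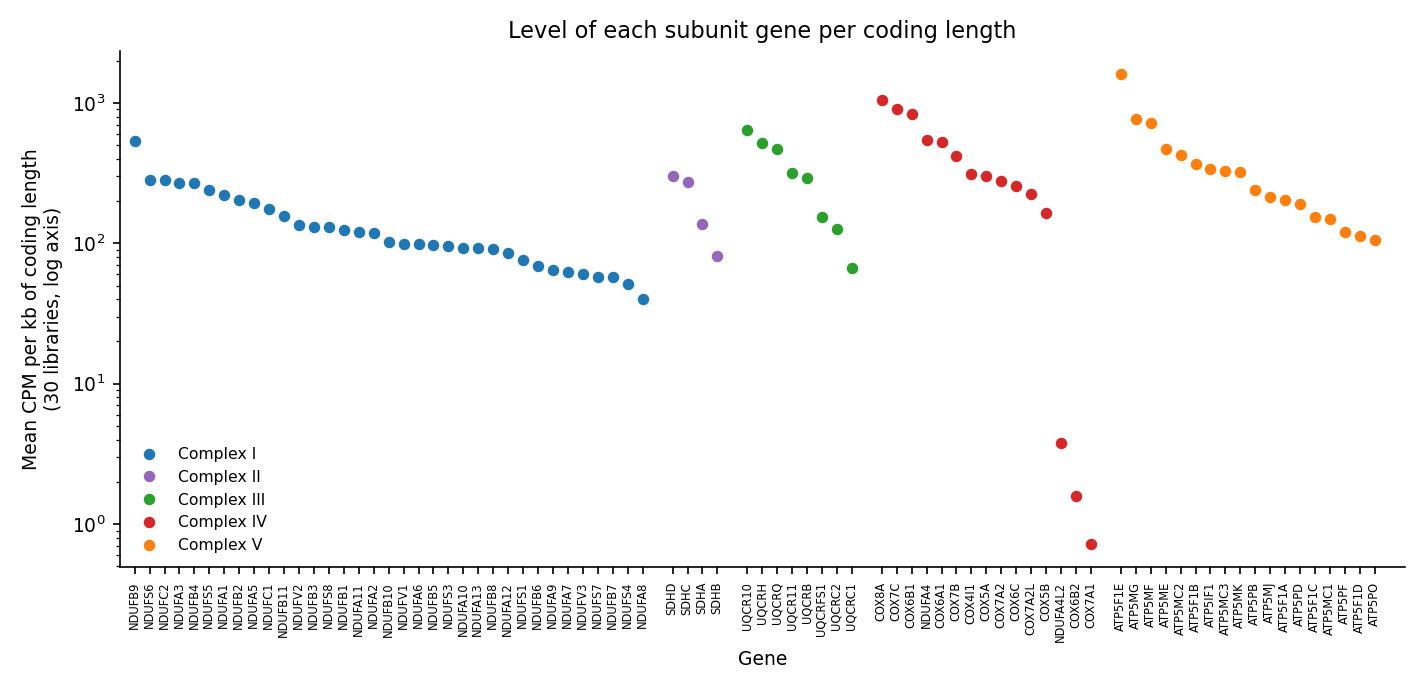
Mean CPM per kb of coding length over 30 libraries (y axis, log axis) for each subunit gene (x axis), grouped by complex and ordered by level; each point is 1 gene, and 1 gene of complex I is not drawn. Complex I genes lie mostly near 101 CPM per kb, and NDUFA4L2, COX6B2 and COX7A1 lie far below the other complex IV genes.

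Isoforms known from other tissues were near or at 0 in this epithelial line. COX6A2 and COX7B2 had no count in any library, COX4I2 and COX8C had 1 count each over all libraries, and ATP5MGL had 47 counts over 25 libraries with at most 4 in any. COX6B2, the testis form of COX6B1, averaged 0.421 CPM and COX7A1, the muscle form of COX7A2, 0.172 CPM. The readthrough NDUFC2-KCTD14 had 81 counts in all, spread over 15 libraries, which is too few for a fold change. UQCRHL, an intronless copy of UQCRH, averaged 7.4 CPM and the readthrough ATP5MF-PTCD1 8.55 CPM; reads shared with UQCRH and ATP5MF could be split between the copies by the counting. The same holds for SDHA, whose 4 named pseudogenes held 10.8% of the CPM of the gene and its pseudogenes together, the highest share among the 49 members with a named pseudogene.

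Shorter members varied more over the libraries. For the 80 members with a mean of at least 1 CPM, the coefficient of variation over all 30 libraries ran from 2.76% for NDUFA10, a complex I accessory subunit, to 21.2% for ATP5MK, a small ATP synthase subunit, with a median of 11.4%. The other steady members were UQCRC2 (3.23%), NDUFS1 (3.59%) and SDHA (3.77%), and the other variable ones included ATP5ME (19.3%) and ATP5MC2 (17.2%). The median was 13.8% for 21 members with under 300 coding nucleotides, 11.2% for 39 from 300, 8.77% for 11 from 600 and 3.89% for 9 from 1200 nucleotides. Across these genes, which share libraries and are not independent replicates, Spearman's rho of the coefficient with coding length was -0.66 and with mean CPM -0.24. Members are short as a set: their median coding length was 385.5 nucleotides, against 1374 over 13655 protein-coding genes tested. By transcript length the medians were 707.5 and 1829 nucleotides.

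For Bojungikgi at 500 µg/mL against the vehicle, respiratory subunit genes were mostly lower. By edgeR's quasi-likelihood test at a Benjamini-Hochberg adjusted p under 0.05, 46 of 84 members were lower and 1 was higher, where 15.4% of all genes tested were called lower and 14.3% higher, 29.7% in all. The members' median log2 fold change was -0.33, against -0.01 over all genes tested, and 77 members lay below 0. In 38 members the 3 Bojungikgi libraries all lay below the 3 vehicle libraries, a pattern seen in 19.1% of all genes tested. Without vehicle replicate 1, 6 members were called, without Bojungikgi 500 µg/mL replicate 2, 15 members, and in a fit of these 6 libraries alone, none. The shares of all genes called in these smaller fits are not given.

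Within complex I, 17 of 36 genes fell and 1 rose. Without vehicle replicate 1, only NDUFB2 and NDUFS4 of these stayed called. In the catalytic core, which carries the flavin and iron-sulfur centres, NDUFS3, NDUFS7, NDUFS8, NDUFV1 and NDUFV2 fell, by 0.22 to 0.42 on the log2 scale. Each of these 5 calls was lost without vehicle replicate 1 (edgeR, Benjamini-Hochberg adjusted p between 0.0624 and 0.346), and those of all but NDUFS8 also without Bojungikgi 500 µg/mL replicate 2 (adjusted p between 0.057 and 0.311). NDUFS1 had 166, 177 and 170.0 CPM in Bojungikgi 500 µg/mL libraries, against 148, 157 and 159 CPM in vehicle libraries. It thus moved the other way, without overlap, with a log2 fold change of 0.14 ± 0.04 (SE; edgeR, Benjamini-Hochberg adjusted p = 0.012), a call that was lost without vehicle replicate 1 (adjusted p = 0.0872) and without Bojungikgi 500 µg/mL replicate 2 (adjusted p = 0.0724). NDUFS4, an accessory subunit beside the NADH-oxidising module and a gene of Leigh syndrome, had 25.9, 19.5 and 25.9 CPM in Bojungikgi 500 µg/mL libraries, against 35.7, 29.6 and 31.0 CPM in vehicle libraries. Its groups did not overlap, and its log2 fold change was -0.43 ± 0.09 (edgeR, Benjamini-Hochberg adjusted p = 0.00111). NDUFB2, an accessory subunit of the membrane arm, had 61.0, 43.9 and 62.8 CPM in Bojungikgi 500 µg/mL libraries, against 92.7, 77.6 and 71.3 CPM in vehicle libraries; it was chosen for description after its values were seen. Replicate 2 was the lowest library for both of these genes, and replicates 1 and 3 also lay below every vehicle library.

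Of the 4 genes of complex II, 3 fell, with a median of -0.18 for the 4. SDHA, SDHB (the iron-sulfur subunit) and SDHD had log2 fold changes of -0.13 ± 0.04, -0.23 ± 0.08 and -0.26 ± 0.07 (edgeR, Benjamini-Hochberg adjusted p = 0.0244, 0.0269 and 0.00872). All 3 calls were lost without vehicle replicate 1 (adjusted p between 0.0742 and 0.279) and without Bojungikgi 500 µg/mL replicate 2 (adjusted p between 0.0806 and 0.205). In complex III, 4 of 8 genes fell, with a median of -0.37. Without vehicle replicate 1, only UQCRFS1 of these stayed called. UQCRFS1, the Rieske iron-sulfur protein that takes electrons from ubiquinol, had 116, 105 and 129 CPM in Bojungikgi 500 µg/mL libraries, against 173, 145 and 146 CPM in vehicle libraries. Its groups did not overlap, and its log2 fold change of -0.40 ± 0.08 had the smallest p among the members (edgeR, Benjamini-Hochberg adjusted p = 0.000673). UQCRQ, a small subunit of the same complex, had 113, 65.6 and 118 CPM in Bojungikgi 500 µg/mL libraries, against 187, 139 and 139.8 CPM in vehicle libraries. Here replicate 2 and vehicle replicate 1 stood farthest apart, and the log2 fold change was -0.64 ± 0.16 (edgeR, Benjamini-Hochberg adjusted p = 0.00638), which became -0.49 without vehicle replicate 1 (adjusted p = 0.0627). UQCRC2, a core protein, lay at -0.02 ± 0.04 and did not pass the test.

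Complex IV had the lowest median, -0.44 over 15 genes, of which 11 fell. All 11 calls were lost without vehicle replicate 1 (edgeR, Benjamini-Hochberg adjusted p between 0.0521 and 0.361). Among the 11 general subunits, 10 fell, with a median of -0.52; COX7B, at -0.40 ± 0.16, did not pass the test. COX8A had 209, 125 and 224 CPM in Bojungikgi 500 µg/mL libraries, against 357, 266 and 238 CPM in vehicle libraries. Its groups did not overlap, the log2 fold change was -0.62 ± 0.17 (edgeR, Benjamini-Hochberg adjusted p = 0.0114), and the call was lost without vehicle replicate 1 (adjusted p = 0.108) or without Bojungikgi 500 µg/mL replicate 2 (adjusted p = 0.0604). COX4I1, the largest nuclear subunit, had 152, 106 and 165 CPM in Bojungikgi 500 µg/mL libraries, against 221, 178 and 174 CPM in vehicle libraries, with replicate 2 the lowest of all 30 libraries. COX4I1 too was chosen after its values were seen. COX7A2L, a relative of COX7A2 that helps to join complexes III and IV, fell by 0.21 on the log2 scale. Without vehicle replicate 1 neither was called (edgeR, Benjamini-Hochberg adjusted p = 0.0665 for COX4I1 and 0.361 for COX7A2L), and without Bojungikgi 500 µg/mL replicate 2 COX7A2L was not (adjusted p = 0.183).

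In complex V, 10 of 18 genes fell, with a median of -0.355. Without vehicle replicate 1, only ATP5F1D, ATP5MC2 and ATP5PB, a peripheral stalk gene named only for this, stayed called. All 3 genes for the proton-carrying c subunit fell: ATP5MC1 by 0.43, ATP5MC2 by 0.71 and ATP5MC3 by 0.46 on the log2 scale. Without vehicle replicate 1 ATP5MC1 and ATP5MC3 were not called (edgeR, Benjamini-Hochberg adjusted p = 0.0819 and 0.0527). ATP5MC2 had 183, 105 and 161 CPM in Bojungikgi 500 µg/mL libraries, against 301, 221 and 215 CPM in vehicle libraries (edgeR, Benjamini-Hochberg adjusted p = 0.00347). ATP5F1D, the delta subunit of the rotating central stalk, had 57.1, 37.6 and 56.8 CPM in Bojungikgi 500 µg/mL libraries, against 91.2, 65.1 and 70.5 CPM in vehicle libraries, a log2 fold change of -0.58 ± 0.14 (edgeR, Benjamini-Hochberg adjusted p = 0.00422). In both genes the groups did not overlap, and Bojungikgi replicate 2 and vehicle replicate 1 were the extremes. ATP5ME, a membrane subunit at the dimer interface, had 101, 52.4 and 94.1 CPM in Bojungikgi 500 µg/mL libraries, against 166, 123 and 107 CPM in vehicle libraries. Its log2 fold change of -0.67 ± 0.20 (edgeR, Benjamini-Hochberg adjusted p = 0.0179) became -0.47 without vehicle replicate 1 (adjusted p = 0.141) and -0.43 without Bojungikgi 500 µg/mL replicate 2 (adjusted p = 0.094). ATP5IF1, the inhibitor that holds the enzyme back when it would run in reverse, fell by 0.25, a call lost without vehicle replicate 1 (adjusted p = 0.159) and without Bojungikgi 500 µg/mL replicate 2 (adjusted p = 0.16). ATP5F1B and ATP5F1A, the long genes of the catalytic head, lay at -0.09 ± 0.04 and -0.12 ± 0.05 and did not pass the test. The retrogene UQCRHL, counted with no complex, was also lower, but not without vehicle replicate 1 (adjusted p = 0.131) or Bojungikgi 500 µg/mL replicate 2 (adjusted p = 0.142).

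**Figure D3:**
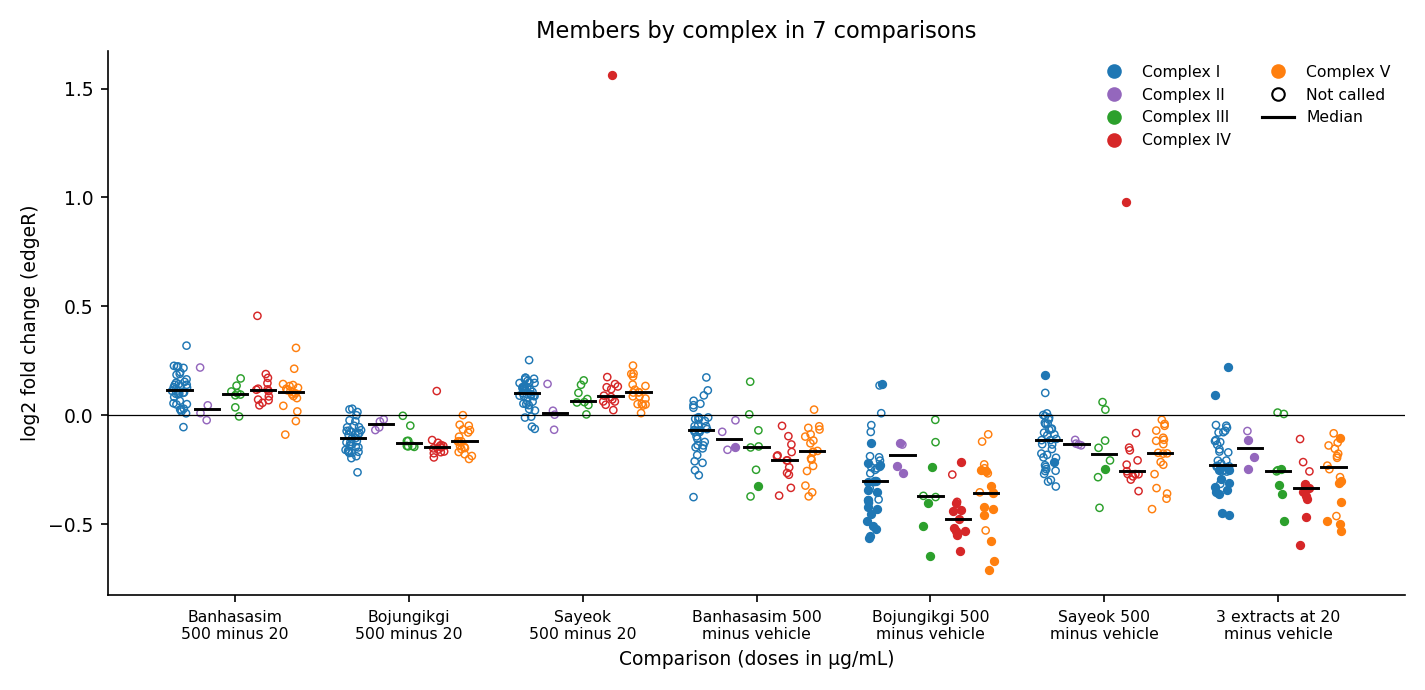
Log2 fold change (y axis, edgeR) of each subunit gene by complex in 7 comparisons (x axis); filled points had an adjusted p (Benjamini-Hochberg) under 0.05, open points were not, and bars are medians. Members with a mean under 1 CPM other than NDUFA4L2, and the readthrough and retrogene members (UQCRHL among them), are not drawn. Called genes gather below 0 for Bojungikgi at 500 µg/mL (46 lower with UQCRHL) and for the 3 extracts at 20 µg/mL (34 lower with UQCRHL) against the vehicle, while NDUFA4L2 stands alone at 1.56 for Sayeok 500 minus 20 µg/mL.

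When the 3 libraries that stood apart were left out together (vehicle replicate 1, Bojungikgi 500 µg/mL replicate 2 and Sayeok 100 µg/mL replicate 2), the median log2 fold change for Bojungikgi at 500 µg/mL against the vehicle was -0.06, with 62 members below 0 and 7 called. UQCRFS1, NDUFS4 and NDUFB2 were called lower in that fit, in the fit without vehicle replicate 1 and in the fit without Bojungikgi 500 µg/mL replicate 2. No other member was called in all 3.

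Shorter genes lay lower. The median log2 fold change for Bojungikgi at 500 µg/mL against the vehicle was -0.41 for 24 members with under 300 coding nucleotides, -0.30 for 40 from 300, -0.30 for 11 from 600 and -0.12 for 9 from 1200 nucleotides. Over all protein-coding genes tested the medians were -0.31, -0.20, -0.09 and 0.06 in the same classes, so the median of members was the lower in each class. Spearman's rho with coding length was 0.45 over the members and 0.42 over 13655 protein-coding genes, given as a description across genes that share libraries. Within single libraries, rho of the members' deviations with coding length was 0.62 in Bojungikgi 500 µg/mL replicate 2 and 0.64 in Sayeok 100 µg/mL replicate 2, against -0.42 in vehicle replicate 1. With per-library offsets for transcript length and GC content, 32 members were called lower, 31 of them among the 46 called lower above. With offsets for coding length and GC content, a version chosen after seeing the data, 24 members were called lower and 2 higher, and the median was -0.13. The part of RNA quality in this pattern was not tested.

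**Figure D4:**
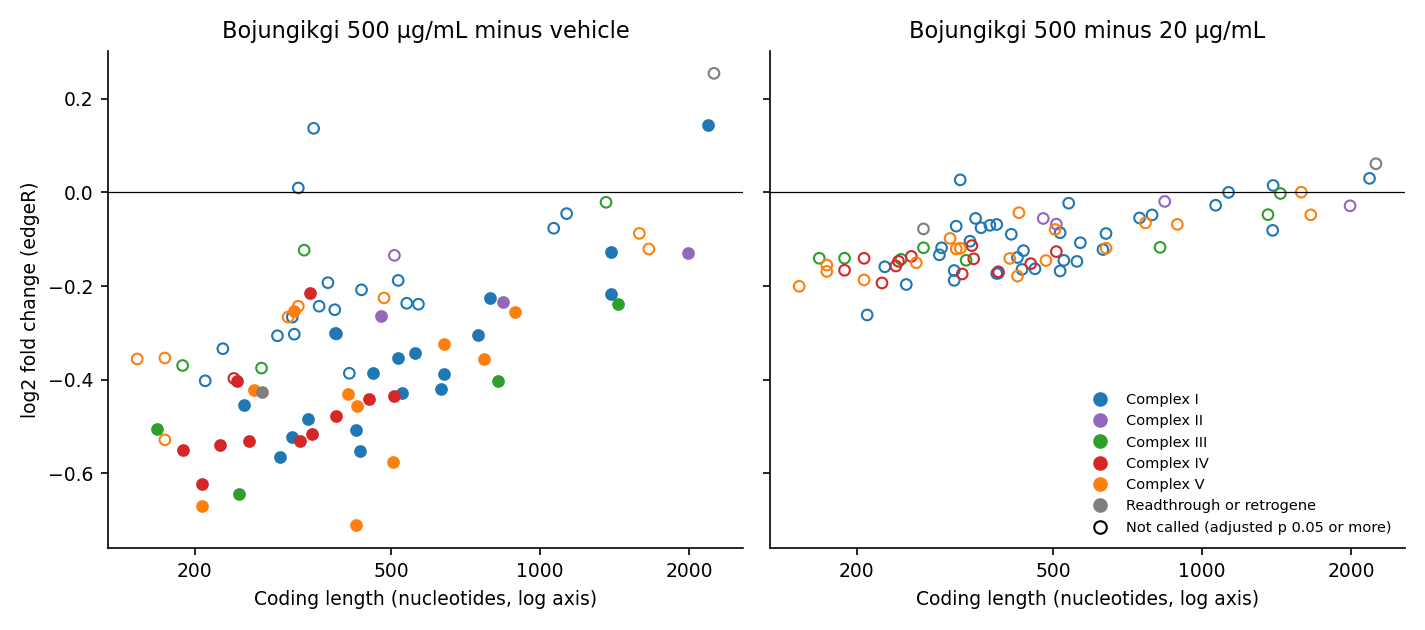
Log2 fold change (y axis, edgeR) of the subunit genes by coding length in nucleotides (x axis, log axis), for Bojungikgi 500 µg/mL minus vehicle (left) and Bojungikgi 500 minus 20 µg/mL (right); filled points were called, and members with a mean under 1 CPM are not drawn. Points climb towards 0 with length in both panels, with rho of 0.45 and 0.55 over the 84 members, and the called gene above 0 on the left is NDUFS1.

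The same vehicle libraries entered the comparison of the lowest dose, the mean of Banhasasim, Bojungikgi and Sayeok at 20 µg/mL against the vehicle, so its values are not independent of those above. At this dose 34 of 84 members were lower and 2 higher (edgeR, Benjamini-Hochberg adjusted p under 0.05), where 15.2% of all genes tested were called lower and 13.7% higher. The median log2 fold change was -0.25, against -0.01 over all genes tested, and 34 members had every 20 µg/mL library below every vehicle library, as did 12% of all genes tested. Called lower were 11 of 36 genes of complex I, 3 of 4 of complex II, 4 of 8 of complex III, 8 of 15 of complex IV and 7 of 18 of complex V, and UQCRHL. Without vehicle replicate 1 the median was -0.12 and 5 members were called, and without the other vehicle libraries 34 and 41 were called.

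UQCRFS1 had 117 and 124 CPM in Banhasasim, 125, 120.0 and 136 CPM in Bojungikgi and 123, 119 and 133 CPM in Sayeok libraries at 20 µg/mL, against 173, 145 and 146 CPM in vehicle libraries. All 8 extract libraries lay below the lowest vehicle library, with a log2 fold change of -0.32 ± 0.06 (edgeR, Benjamini-Hochberg adjusted p = 0.000877). UQCRC1, the other core protein of complex III, had 93.4 and 92.6 CPM in Banhasasim, 96.0, 91.8 and 93.7 CPM in Bojungikgi and 94.0, 94.1 and 90.6 CPM in Sayeok libraries at 20 µg/mL, against 123, 109 and 100.3 CPM in vehicle libraries. Its log2 fold change of -0.25 ± 0.05 had the smallest p of any member here (edgeR, Benjamini-Hochberg adjusted p = 0.000763). NDUFA5, an accessory subunit of the arm that reaches into the matrix, had 67.5 and 73.1 CPM in Banhasasim, 66.5, 68.4 and 70.8 CPM in Bojungikgi and 69.0, 69.0 and 76.0 CPM in Sayeok libraries at 20 µg/mL, against 60.6, 58.0 and 61.6 CPM in vehicle libraries. It rose by 0.22 ± 0.05 on the log2 scale with no overlap (edgeR, Benjamini-Hochberg adjusted p = 0.00215), although its 348 coding nucleotides place it among the short members. These 3 genes and ATP5F1D, with a log2 fold change of -0.53 ± 0.11, were called in all 19 alternatives of this comparison. Of the same 19, ATP5ME was called in 13 and NDUFS1 in 7, so the lost calls named next are not all of them. ATP5ME and ATP5MC2, at -0.50 ± 0.16 and -0.49 ± 0.13, lost their calls without vehicle replicate 1 (edgeR, adjusted p = 0.321 and 0.181), and so did UQCRQ, at -0.48 ± 0.13 (adjusted p = 0.172); ATP5ME also lost it without Banhasasim 20 µg/mL replicate 2 (adjusted p = 0.0636) or 3 (adjusted p = 0.0514). NDUFS1 was the second member called higher, at 0.09 ± 0.04 (edgeR, Benjamini-Hochberg adjusted p = 0.0462), and lost that call without vehicle replicate 1 (adjusted p = 0.252) or 2 (adjusted p = 0.0772), and without Banhasasim replicate 3, Bojungikgi replicate 1 or 2 or Sayeok replicate 3 at 20 µg/mL (adjusted p between 0.0514 and 0.0649).

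Against the same vehicle libraries, few members were called at 500 µg/mL of the other extracts. For Banhasasim, 2 of 84 members were lower and none higher, where 7.12% of all genes tested were called lower and 8.16% higher, and the median log2 fold change was -0.11, which became -0.003 without vehicle replicate 1 and -0.05 without Banhasasim 500 µg/mL replicate 3. UQCRFS1 had 125 and 122 CPM in Banhasasim 500 µg/mL libraries, against 173, 145 and 146 CPM in vehicle libraries, a log2 fold change of -0.33 ± 0.09 (edgeR, Benjamini-Hochberg adjusted p = 0.013). SDHA had 264 and 262 CPM in Banhasasim 500 µg/mL libraries, against 299.6, 296 and 277 CPM in vehicle libraries, a log2 fold change of -0.14 ± 0.05 (edgeR, Benjamini-Hochberg adjusted p = 0.0424). Of 13 alternatives of this comparison, UQCRFS1 was called in 9 and SDHA in 5. Groups did not overlap in either gene, but both calls were lost without vehicle replicate 1 (adjusted p = 0.0884 for UQCRFS1 and 0.143 for SDHA) and without either Banhasasim library (0.0698 to 0.117 for UQCRFS1 and 0.145 to 0.21 for SDHA); that of SDHA was also lost without vehicle replicate 2 (adjusted p = 0.114).

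For Sayeok at 500 µg/mL against the vehicle, 2 members were lower and 2 higher, where 8.27% of all genes tested were called lower and 8.33% higher, and the median log2 fold change was -0.14, which became -0.04 without vehicle replicate 1. Without vehicle replicate 3, 12 members were called, and 2 without Sayeok 500 µg/mL replicate 2 or 3. UQCRC1 had 97.5, 95.0 and 86.9 CPM in Sayeok 500 µg/mL libraries, against 123, 109 and 100.3 CPM in vehicle libraries, a log2 fold change of -0.25 ± 0.06 (edgeR, Benjamini-Hochberg adjusted p = 0.00614). NDUFV1, which binds NADH and its flavin, had 143, 132 and 134 CPM in Sayeok 500 µg/mL libraries, against 181, 154 and 139.8 CPM in vehicle libraries, with overlap between the groups (log2 fold change -0.21 ± 0.07; edgeR, Benjamini-Hochberg adjusted p = 0.0366). Both calls were lost without vehicle replicate 1 (adjusted p = 0.0854 for UQCRC1 and 0.366 for NDUFV1), and that of NDUFV1 also without vehicle replicate 2 (adjusted p = 0.0521), Sayeok 500 µg/mL replicate 2 (adjusted p = 0.127) or replicate 3 (adjusted p = 0.11). NDUFA5 had 64.1, 72.4 and 68.5 CPM in Sayeok 500 µg/mL libraries, against 60.6, 58.0 and 61.6 CPM in vehicle libraries, a log2 fold change of 0.19 ± 0.06 (edgeR, Benjamini-Hochberg adjusted p = 0.0354). That call was lost without vehicle replicate 1 or 2 and without Sayeok 500 µg/mL replicate 2 or 3, at adjusted p between 0.0763 and 0.177. Of 14 alternatives of this comparison, UQCRC1 was called in 12, NDUFA5 in 8 and NDUFV1 in 6. The fourth called member, NDUFA4L2, is described below.

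Comparing doses within an extract leaves the vehicle libraries out of the fold change. For Banhasasim, 500 against 20 µg/mL, 78 of 84 members lay above 0, with a median log2 fold change of 0.11 against 0.00 over all genes tested. None passed the test in edgeR or in DESeq2, where edgeR called 3.82% of all genes tested higher and 4.0% lower, 7.82% in all; 5 members had an unadjusted p under 0.05. The direction holds for TMM-scaled values: as a plain share of all counts the members took 0.828% and 0.812% in 500 µg/mL libraries, against 0.835% and 0.848% in 20 µg/mL libraries. Mitochondrial ribosomal RNA took 12.9% and 9.41% of counts in 500 µg/mL libraries, against 1.09% and 1.01% in 20 µg/mL libraries, and its part in the result was not tested. With 1 library left in an arm, its spread is assumed to be that of the other groups. Without Banhasasim 500 µg/mL replicate 2 the members' median was 0.05, and without replicate 3 it was 0.17 with 1 member called. In 48 members both 500 µg/mL libraries lay above both 20 µg/mL libraries, as did 27.5% of all genes tested. ATP5F1B had 635 and 601 CPM in Banhasasim 500 µg/mL libraries, against 552 and 567 CPM in 20 µg/mL libraries. SDHB had 78.9 and 73.5 CPM in Banhasasim 500 µg/mL libraries, against 65.8 and 65.1 CPM in 20 µg/mL libraries. The groups stood apart in both genes, with log2 fold changes of 0.14 ± 0.05 and 0.22 ± 0.10, and neither was called (edgeR, Benjamini-Hochberg adjusted p = 0.101 and 0.189).

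For Bojungikgi, 500 against 20 µg/mL, 75 of 84 members lay below 0, with a median log2 fold change of -0.12 against 0.00 over all genes tested. None passed the test in edgeR or in DESeq2 (1 at an unadjusted p under 0.05), where edgeR called 0.602% of all genes tested higher and 1.16% lower, 1.76% in all. The 3 libraries at 500 µg/mL lay below those at 20 µg/mL in 1 member, against 9.04% of all genes tested, and above them in 0 members, against 9.7%. ATP5MC2 had 171, 169 and 168 CPM in Bojungikgi libraries at the lowest dose, 142, 181 and 194 CPM at the middle dose and 183, 105 and 161 CPM at the highest. Replicate 2 at 500 µg/mL was the lowest of these and replicate 1 at 100 µg/mL the next. Without Bojungikgi 500 µg/mL replicate 2 the median over the members was 0.04 and 20 members lay below 0, so the direction rested on that library.

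For Sayeok, 500 against 20 µg/mL, 78 of 84 members lay above 0, with a median log2 fold change of 0.10 against 0.00 over all genes tested. In 26 members all libraries at 500 µg/mL lay above all at 20 µg/mL, as did 11.1% of all genes tested. NDUFA4L2 was the member called, where edgeR called 1.14% of all genes tested higher and 2.03% lower, 3.18% in all. NDUFA4L2 (chr12:57234903-57240715, minus strand, GRCh38) codes for a paralogue of the complex IV subunit NDUFA4 and is known as a gene induced by hypoxia-inducible factors that lowers complex I activity. In Sayeok libraries it had 0.773, 0.896 and 0.605 CPM at the lowest dose, 0.853, 0.864 and 0.691 CPM at the middle dose and 2.40, 2.69 and 1.64 CPM at the highest dose, against 1.35, 1.17 and 0.948 CPM in vehicle libraries. Every library at 500 µg/mL lay above all the other 27 libraries of the study. The log2 fold change was 1.56 ± 0.20 against 20 µg/mL (edgeR, Benjamini-Hochberg adjusted p = 1.31e-05) and 0.98 ± 0.18 against the vehicle (adjusted p = 0.000838), and each was called in all 14 alternatives tried, with ranges of 1.4 to 1.73 and 0.82 to 1.20. The step from 20 to 100 µg/mL stayed within the spread of the libraries.

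Counts behind these values were small, between 24 and 146 a library. NDUFA4L2 stood at 1.79%, 1.85% and 1.19% of the level of NDUFA4 in the libraries with Sayeok at 500 µg/mL, while NDUFA4 itself had 134, 146 and 138 CPM there, against 124, 120.4 and 134 CPM at 20 µg/mL. In the same comparison NDUFA4 was not called. Banhasasim at 500 µg/mL gave 0.908 and 0.873 CPM of NDUFA4L2. The same dose of Bojungikgi gave 0.808, 0.925 and 1.11 CPM. Yijung at 20, 100 and 500 µg/mL gave 0.664, 0.748 and 0.813 CPM, all below the vehicle libraries. At 20 µg/mL of the 3 replicated extracts NDUFA4L2 was lower than in the vehicle (-0.60 ± 0.17, edgeR, Benjamini-Hochberg adjusted p = 0.00953). It was called in 16 of 19 alternatives, with adjusted p up to 0.151. The fit without vehicle replicate 1 was among those that lost the call (edgeR, adjusted p = 0.0984).

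**Figure D5:**
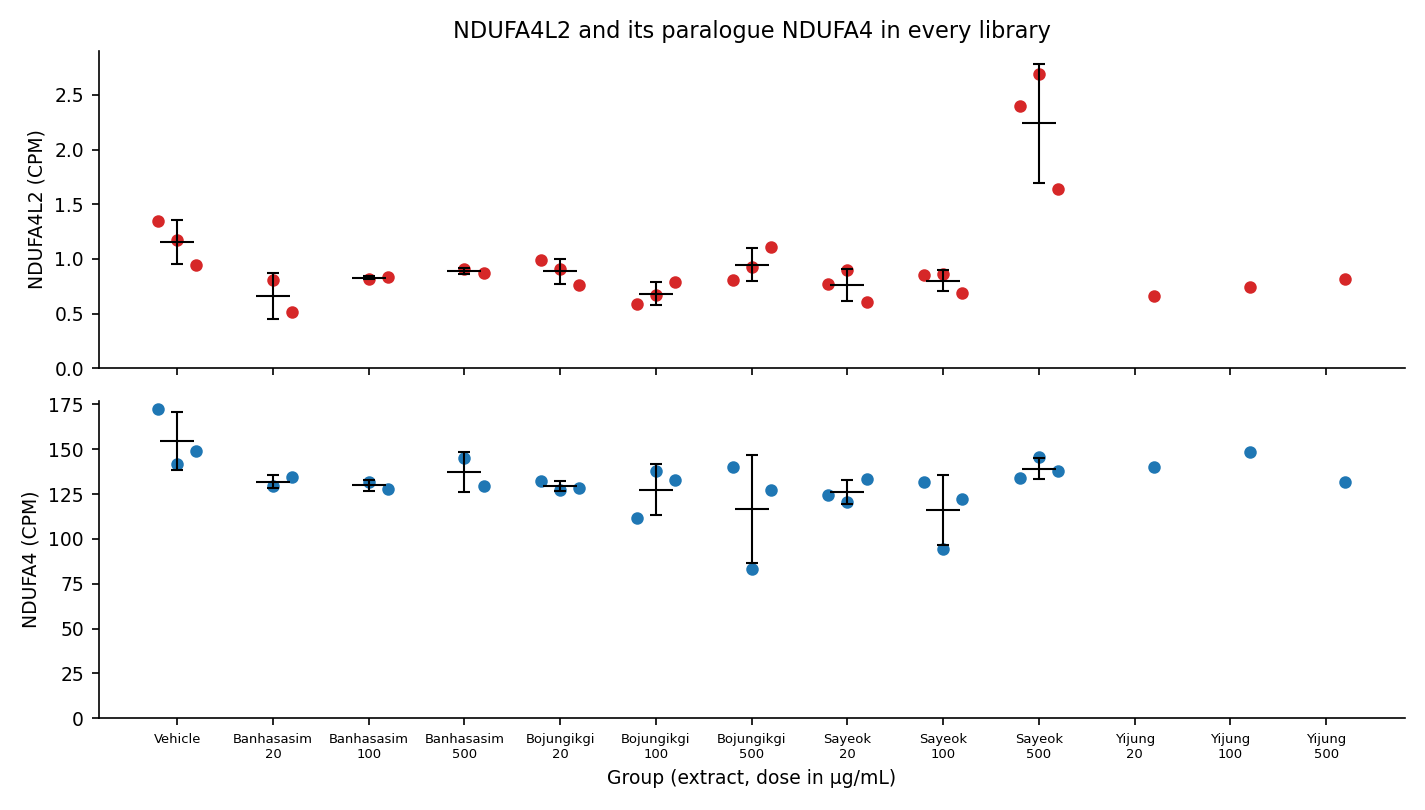
CPM of NDUFA4L2 (top) and of its paralogue NDUFA4 (bottom) in every library (points) by group (x axis, extract and dose in µg/mL); horizontal bars are group means and vertical bars the SD, absent for Yijung with 1 library a dose. The Sayeok 500 µg/mL libraries hold 1.64 to 2.69 CPM of NDUFA4L2, above every other library.

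Between 100 and 20 µg/mL no member was called for any extract by edgeR or DESeq2, where edgeR called 0.0852% of all genes tested for Banhasasim (0.0799% higher, 0.00532% lower), 0.0106% for Bojungikgi and 0.0% for Sayeok; 0, 0 and 2 members had an unadjusted p under 0.05. Median log2 fold changes were 0.02, -0.02 and -0.03 for Banhasasim, Bojungikgi and Sayeok. The libraries at 100 µg/mL all lay above those at 20 µg/mL in 14 members and below them in 2 for Banhasasim, against 15.3% and 14.2% of all genes tested. For Bojungikgi this held in 1 and 4 members, against 4.49% and 4.58%, and for Sayeok in 5 and 1 members, against 4.69% and 4.5%. Of the 2 Sayeok members with an unadjusted p under 0.05, NDUFA5 had the smaller p. Its log2 fold change was -0.18 ± 0.06 (edgeR, unadjusted p = 0.00524, Benjamini-Hochberg adjusted p = 0.94). NDUFB1, a small complex I subunit, was the other, with 36.5, 24.1 and 39.8 CPM at 100 µg/mL, against 39.4, 42.8 and 47.3 CPM at 20 µg/mL. Its replicate 2 at 100 µg/mL, which stood apart for the members as a set, was the lowest of all libraries for this gene.

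Whether the change from 20 to 500 µg/mL differed between extracts was asked with interaction terms, and no member was called by edgeR or DESeq2 in any of the 3. For Banhasasim minus Bojungikgi the median difference was 0.22 on the log2 scale, with 81 members above 0 and 3 at an unadjusted p under 0.05, where 2.06% of all genes tested were called. For Bojungikgi minus Sayeok the median was -0.20, with 79 members below 0 and 4 at an unadjusted p under 0.05, where 0.0266% of all genes tested were called. Without Bojungikgi 500 µg/mL replicate 2 these medians were 0.08 and -0.06. For Banhasasim minus Sayeok the median was 0.01, with 49 members above 0 and 1 at an unadjusted p under 0.05, where 1.04% of all genes tested were called. NDUFA4L2 differed by -1.45 ± 0.28 for Bojungikgi minus Sayeok (edgeR, Benjamini-Hochberg adjusted p = 0.0774) and by -1.10 ± 0.34 for Banhasasim minus Sayeok (adjusted p = 0.147). The first of these was called in 2 of 20 alternatives: with no filter on low counts, at -1.46 (adjusted p = 0.000473), and without Sayeok 500 µg/mL replicate 3, at -1.62 (adjusted p = 0.015). Whether the rise under Sayeok differed from Bojungikgi thus depended on the processing, and missing the threshold does not show that the extracts act alike.

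Yijung was sequenced once at each dose, so its values are descriptions. Member median deviations were 0.03, 0.01 and 0.01 at 20, 100 and 500 µg/mL, within the range of the libraries of the other extracts. ATP5MC2 had 182, 178 and 166 CPM at 20, 100 and 500 µg/mL, and UQCRFS1 120.1, 126 and 118 CPM. All of these lay below the vehicle libraries, as the 20 µg/mL libraries of the other extracts did.

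Genes that work with the members were described from lists taken from textbook knowledge, by the same edgeR calls and with the same vehicle libraries. Over all genes tested, 15.4% were called lower and 14.3% higher for Bojungikgi at 500 µg/mL against the vehicle, and 15.2% lower and 13.7% higher for the 3 extracts at 20 µg/mL. Of 58 assembly factors, 25 were lower and 3 higher for Bojungikgi (median -0.195), and 29 and 2 for the 3 extracts (median -0.19). Without vehicle replicate 1 these counts were 5 and 1, and 4 and 0, and without Bojungikgi 500 µg/mL replicate 2 the first were 6 and 3. Among them NDUFAF8, needed to build complex I, fell by 0.84 and 0.75 on the log2 scale, and SURF1, a complex IV assembly factor mutated in Leigh syndrome, by 0.49 and 0.38. Of 19 electron carriers and donors, 8 were lower and 1 higher in each of these comparisons; without vehicle replicate 1 it was 2 and 1 for Bojungikgi and 2 and 0 for the 3 extracts, and without Bojungikgi 500 µg/mL replicate 2 it was 3 and 1 for Bojungikgi. CYC1, cytochrome c1 of complex III, fell by 0.40 and 0.39, while GPD2, which feeds electrons from glycerol 3-phosphate to ubiquinone, rose by 0.36 and 0.21, the second call being lost without vehicle replicate 1 (adjusted p = 0.0703). Of 16 transcriptional regulators, 5 were higher and 1 lower for Bojungikgi at 500 µg/mL, and 3 were higher and 5 lower for the extracts at 20 µg/mL. Without vehicle replicate 1 it was 4 and 0, and 2 and 0, and without Bojungikgi 500 µg/mL replicate 2 it was 4 and 0 for Bojungikgi. GABPA, the DNA-binding subunit of GABP, rose by 0.36 and 0.30, and CREB1 by 0.33 and 0.26. NRF1 was lower in the 20 µg/mL comparison, at -0.20, a call lost without vehicle replicate 1 (adjusted p = 0.0542).

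Of 13 subunits coded in mitochondrial DNA, 5 were lower and none higher for Banhasasim at 500 against 20 µg/mL (edgeR, Benjamini-Hochberg adjusted p under 0.05), where 4.0% of all genes tested were called lower. Their median log2 fold change was -0.94, and their median deviation was -0.47 and -1.37 in the 500 µg/mL libraries, against 0.04 and -0.03 in the 20 µg/mL libraries, while the 84 nuclear members had a median of 0.11 and no call. MT-CO1, the catalytic subunit of complex IV, fell by 1.09 and MT-ND4, a proton-pumping subunit of complex I, by 1.5 on the log2 scale. Both were called in 11 of 12 alternatives, the exception being the fit of the 4 libraries alone (adjusted p = 0.0901 and 0.227). Without Banhasasim 500 µg/mL replicate 2 the median was -1.38 with 8 called, and without replicate 3 it was -0.59 with 4 called. Mitochondrial ribosomal RNA moved the other way. It took 12.9% and 9.41% of counts in replicates 2 and 3 of Banhasasim at 500 µg/mL, against 0.914% to 1.91% in all other libraries. Its part in the result was not tested. For Bojungikgi and Sayeok at 500 against 20 µg/mL no mitochondrially coded subunit was called, with medians of -0.06 and 0.04.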

How the data were processed

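Total RNA of 30 HT29 libraries (RNA integrity above 7, directional library kit, paired reads) was sequenced. Expected counts for each gene were deposited, made by the authors with RSEM 1.3.3 on STAR 2.7.3a alignments to GRCh38 after Trim Galore 0.6.5 and FastQC 0.11.9, per the submitters' processing notes; the annotation release is not given in the sources used here, nor is the strand option. Of its 270 columns, 240 were not used, being outside these samples. Expected counts (25.48% not whole) were rounded. Genes were kept by edgeR's filterByExpr with a minimum count of 10, scaled by TMM and tested with edgeR 4.0.16 in R 4.3.3 (quasi-likelihood, 1 mean per group over all 13 groups, 17 residual degrees of freedom) with Benjamini-Hochberg adjustment over 18783 genes. SE is the absolute log2 fold change over the square root of F. The biological coefficient of variation was 6.38%, and CPM are per 1e6 counts scaled by TMM. Alternatives were DESeq2 1.42.0, other size factors, no filter, the replicate number as a block, length and GC offsets, fits of the compared groups alone and leaving out each replicate; a coding-length version and leaving out 3 libraries together were chosen after seeing the data. Scripts were tested on simulated data. Coordinates and lengths are from GENCODE 29, promoters from RefSeq. Members named are those with the highest level per complex, the largest and most significant calls per comparison, and those with set roles (catalytic core, c subunits, inhibitor, isoforms, readthroughs); of the other lists, the 3 smallest p. Members and lists were chosen with earlier results of these data known; 1 member is not reported here by name.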

Additional observations from a re-analysis of the deposited data

How the results depend on the processing

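Numbers of called members moved with the processing, and the cause was not tested. Shares of all genes called under these alternatives are not given, so the moves cannot be read as particular to the members. For Bojungikgi at 500 µg/mL against the vehicle, 47 were called: 0 in a fit of those groups alone, 26 with coding length and GC offsets, 7 without the 3 libraries that stood apart, and 6 to 62 leaving out each replicate. Called lower in this comparison were 67 members with no filter, 52 by DESeq2, 43 with other size factors and 32 with length and GC offsets. The main fit called 46 lower. For the 3 extracts at 20 µg/mL, 36 were called: 60 with no filter, 21 with length and GC offsets, 22 with coding length and GC offsets, and 5 to 41 leaving out each replicate. For Sayeok at 500 µg/mL against the vehicle, 4 were called: 11 by DESeq2, 35 with no filter, 1 in its own groups, 8 with coding length and GC offsets, and 1 to 12 leaving out each replicate. For Banhasasim at 500 µg/mL against the vehicle, 2 were called: 22 with no filter, 1 with length and GC offsets, 0 in its own groups, 5 with coding length and GC offsets, and 0 to 3 leaving out each replicate. Between 500 and 20 µg/mL, Banhasasim (0 called) gave 2 with no filter, 1 with either length and GC offset, 6 without the 3 libraries and 0 to 1 leaving out each replicate, Bojungikgi (0) 6 with no filter, and Sayeok (1) 3 with no filter, 3 in its own groups and 2 without the 3 libraries. Sayeok at 100 against 20 µg/mL (0) gave 1 with no filter. With no filter the interactions of Banhasasim and Sayeok with Bojungikgi gave 12 and 10, and that of Bojungikgi and Sayeok 0 to 1 leaving out each replicate. NDUFS1 in the 20 µg/mL comparison turned to -0.02 with coding length and GC offsets. Of single-gene values under alternatives, 1300 kept direction and call, 203 lost the call, 8 gained it and 6 changed sign, of which 1 was called before the change and 5 were called in neither fit. With the replicate number as a block, 48 members were called for Bojungikgi and 33 at 20 µg/mL; same-numbered libraries did not pair (correlations of -0.104 to 0.195). Depth limits the genes under 1 CPM, NDUFA4L2 at 24 to 146 counts among them; intervals and SEs cover the spread of these libraries, and Yijung has no replicate.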
